A study of Solanum lycopersicum with 18 samples.

Results

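Of 10101 tomato array probe sets, 95 had at least 4-fold lower signals at 45 than at 35 days, the ages given by the labels. This held in fruit of both the wild type and the rin (ripening inhibitor) mutant. A probe set is the group of short probes on an array that together report 1 transcript. The members were chosen by a rule on the signals themselves. Signals under 32 were raised to 32, the log2 values of the 3 arrays of each group were averaged, and a member had a log2 change from 35 to 45 days of -2 or less, in each genotype. The rule used the 12 arrays at 35 and 45 days, so everything between those ages is given here as a description without a test. The 6 arrays at 40 days had no part in the choice, and the difference between genotypes at that age is the comparison that was tested.

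The samples were pericarp, the fleshy wall of the fruit, of the variety Pusa Ruby. Wild-type and rin fruit were each taken at 35, 40 and 45 days, counted by the labels in days after planting (DAP). That starting point is the labels' own and was not checked. Each of the 6 groups has 3 arrays, 18 in all. The labels call these ages immature green, breaker and red-ripe for both genotypes, although the mutation, which hits the gene RIN, prevents normal ripening. No treatment separates the groups, and neither the plant background of the rin lesion nor the number of fruits behind a sample is given in the labels. The labels call the replicates biological and number the plants, but the codes in their titles recur. In rin, replicates 2 and 3 carry the same codes at all 3 ages, and replicate 1 does so at 35 and 40 DAP. In wild type, 1 code recurs at all 3 ages under a different plant number each time, and another at 40 and 45 DAP. Whether arrays of different ages share a plant is not stated, and each p-value rests on the scatter among the deposited arrays, some of which could be technical. The number of arrays limits the precision of every value. In bulk tissue, fewer cells of a type and less RNA per cell cannot be told apart.

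A tomato fruit first grows by cell division and then by cell expansion, during which enzymes loosen and rebuild the cell wall and the green pericarp stores starch for a time. Ripening then brings softening, loss of chlorophyll and carotenoid accumulation, with RIN as a master regulator acting together with the hormone ethylene. Transcripts of the growth phase decline as the fruit matures, and rin fruit stays green and firm far longer than wild type.

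In wild type 564 probe sets met the threshold and in rin 123. The 95 that met both made up 77.2% of the rin list and 16.8% of the wild-type list. Among the members the log2 change from 35 to 45 DAP lay between -7.42 and -2.01 in wild type, with a median of -3.66, and between -6.10 and -2.001 in rin, with a median of -2.66. The change was the larger in wild type for 72 of the 95. These sizes are limited by the floor: all 3 arrays at 45 DAP were under 32 for 63 members in wild type and for 23 in rin. At the edge of the rule, the smaller change was -2.01 for Les.5817.1.S1_at and Les.3164.1.A1_at and -2.001 for Les.3368.1.S1_at just inside, and -1.99 for Les.1331.1.A1_at and LesAffx.344.5.S1_at and -1.98 for Les.681.1.A1_at just outside. Probe sets beyond those lines differ little from those within them.

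**Figure D1:**
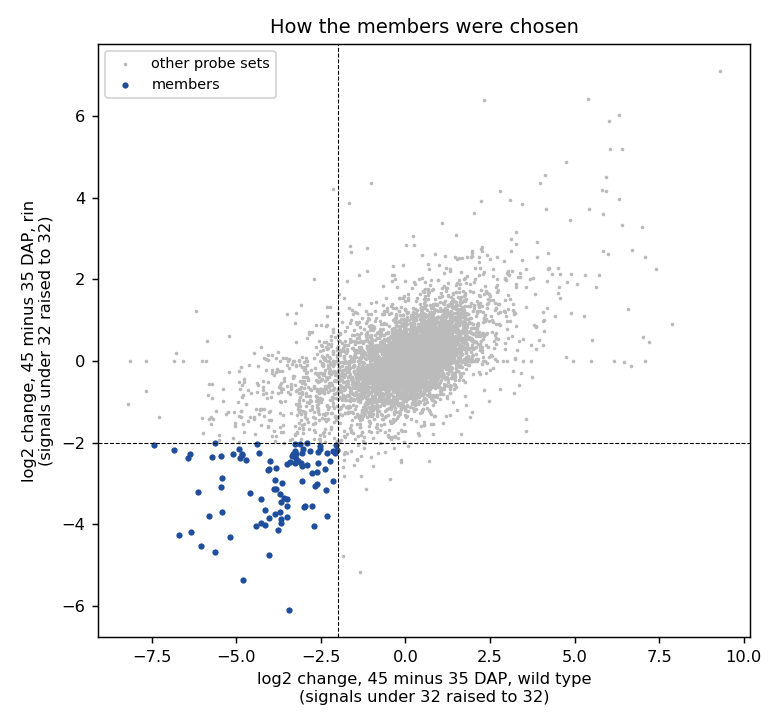
Log2 change of signal from 35 to 45 DAP in wild type (x axis) and in rin (y axis) for every probe set, with signals under 32 raised to 32. Dashed lines mark -2 on each axis, and the 95 members (blue) are the points below and left of both; most probe sets below the wild-type line lie above the rin line.

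The 95 probe sets fall into 87 groups of the array's design, since 6 groups hold more than 1 member and 14 members share a group in this way. The groups were read from the probe set IDs, and whether probe sets of a group share a target was not checked. The values of the 95 cannot be taken as independent. Only 17 members carry a gene symbol in the platform's annotation, 17.9% against 9% of all probe sets, and the other 78 are unnamed here. All 95 passed the filter on dim signals, which kept 7720 probe sets for the tests. The rule requires a mean signal well above 32 at 35 DAP in both genotypes, which made passing likely, so nothing is read from it.

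Levels at 35 DAP were alike in the genotypes as far as the medians show. The median signal of the 95 members was 616, 400 and 502 on the 3 wild-type arrays and 611, 594 and 711 on the 3 rin arrays. Arrays of the genotypes did not overlap for 9 members at that age, of which 7 were higher in rin and 2 lower (7.37% and 2.11%), against 6.93% and 5.52% of all tested probe sets, so the share higher in rin was near the background. Single members ranged widely, from 133 to 5985 in wild type and from 147 to 7079 in rin (geometric means, signals under 32 raised to 32).

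At 45 DAP the medians were 7.26, 8.12 and 10.5 in wild type and 24.4, 92.9 and 90.0 in rin. All 3 arrays were under 32 for 63 members in wild type and for 23 in rin, and for 20 in both. With signals under 32 raised to 32, the levels at 45 DAP were higher in rin for 68 members, lower for 7 and at 32 in both for 20. On the signals as deposited, every rin array lay above every wild-type array for 52 members (54.7%), against 20.9% of all tested probe sets. Some of these, such as XTH16 and AgpL1, were under 32 on all arrays of both genotypes, where signals have no reliable order. For 4 members every rin array lay below, against 27.7%. Over all tested probe sets the array medians stayed between 162 and 178. These are arrays that the rule had used, and nothing is read from the shares. Within rin at 45 DAP, replicate 1 was the lowest of the 3 for 76 members. Replicates 2 and 3 had the highest correlation of any pair of replicates (r = 0.991, across probe sets). With their mean counted as 1 array the rule found 121 probe sets, 94 of them among the 95. Without replicate 1 of rin at 45 DAP the rule found 70, of which 68 were among the 95. The remaining members met the rule only with that array included.

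The 40-DAP arrays of rin were unlike each other, and this bears on every result at that age. The median signal of the members was 57.6 on replicate 1, 648 on replicate 2 and 484 on replicate 3. In wild type it was 11.2, 33.3 and 29.2. Replicate 1 of rin was the lowest of its group for 92 of the 95 members (96.8%), against 32.1% of all tested probe sets. On the signals as deposited, it lay at or below the highest wild-type array for 37 members, whereas replicate 2 did so for 4 and replicate 3 for 8. For some of the 37, such as AgpL1, both signals were under 32, where signals have no reliable order. RIN itself was between 5.29 and 9.27 on the 3 rin arrays, far under the 4020 to 4911 of wild type, so the genotype label of replicate 1 was not contradicted. Psy1, the phytoene synthase of ripening fruit, was at 4062 on that array against 2079 and 1391 on the others, and the polygalacturonase PG2, which degrades pectin, at 915 against 375 and 7.43. Results at 40 DAP are therefore given with and without single rin arrays.

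**Figure D2:**
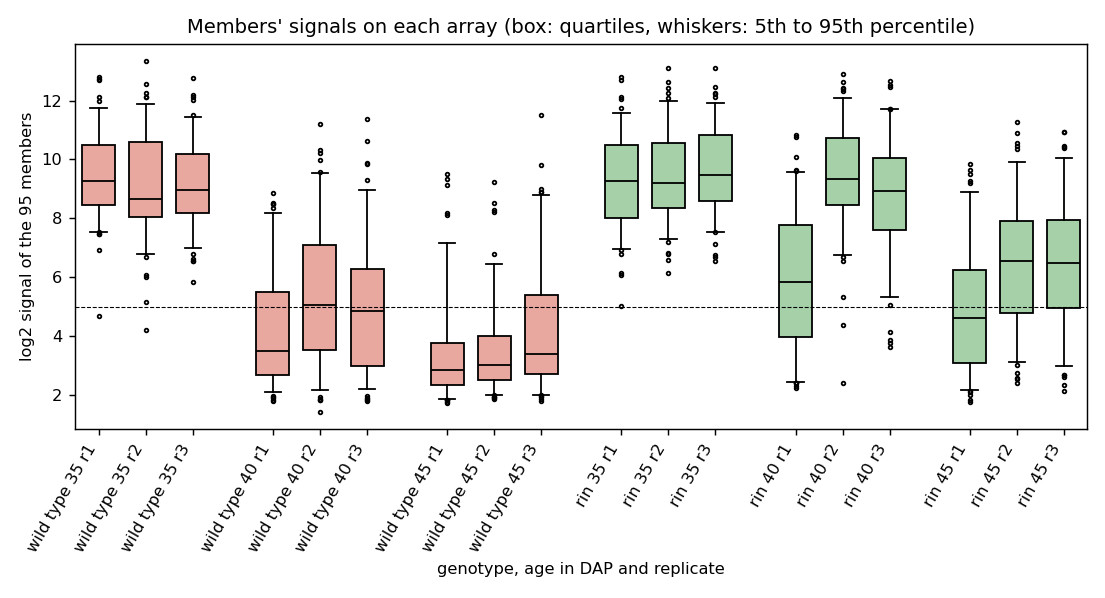
Log2 signals of the 95 members on each of the 18 arrays (boxes, quartiles; line, median; whiskers, 5th to 95th percentile; points, members beyond), wild type in red and rin in green, with a dashed line at a signal of 32. All arrays at 35 DAP are high, the wild-type arrays at 40 and 45 DAP are low, and replicate 1 of rin at 40 DAP, with a median of 57.6, lies between its own replicates and wild type.

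At 40 DAP most members were higher in rin than in wild type. Of the 95, 65 were called higher in rin, which is 68.4% against 15.1% of all probe sets tested, and 0 were called lower, against 10.8% (limma, adjusted p under 0.05 by Benjamini-Hochberg over all tested probe sets). At an unadjusted p under 0.05 in limma, the only tool run, 80 were higher and 0 lower, against 22.3% and 16.4% of all tested probe sets. The median log2 difference, rin minus wild type, was 3.39 over the members and 0.07 over all tested probe sets. With signals under 32 raised to 32 it was 2.53, against 0.00. On the signals as deposited, arrays did not overlap for 57 members, all higher in rin (60% of the 95, background 21.7%), and 0 in the other direction (background 18.3%). For some of these 57, rin replicate 1 was itself under 32, where signals have no reliable order. Calls in either direction made up 25.9% of all tested probe sets. Leaving out 1 rin array gave 48 calls without replicate 2 (background 12.8%) and 45 without replicate 3 (background 9.24%). Without replicate 1 there were 83 calls higher in rin (background 14.7%) and 0 lower (background 11.2%), and arrays did not overlap for 86 (background 27.6%). Replicate 1 was singled out because the members were low on it, so leaving it out had to raise their rin means, and values without it are given as a description that supports nothing. With only the 6 arrays at 40 DAP in the fit, so that no array the rule had used gave any of the spread, 34 were called higher (background 7.45%), each of them among the 65.

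For the 65 called members the ratio of geometric means, rin over wild type at 40 DAP, ran from 1.59 to 60.3 with a median of 7.65. For 51 of them at least 1 wild-type array was under 32. Where that is so the fold is a lower bound, the geometric mean of rin over that of wild type with signals under 32 raised to 32, and it is written as "at least".

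The 469 probe sets that met the threshold in wild type but not in rin show the same direction at this age. Of 468 tested, 250 were called higher in rin (53.4%) and 2 lower, with a median log2 difference of 1.49 (signals raised to 32). With only the 6 arrays at 40 DAP 37.8% were called higher, against 35.8% of the members. Arrays did not overlap, higher in rin, for 56.8%, against 60% of the members. Of the 28 that met the threshold in rin only, 14 were called higher (50%, against 15.1% of all tested probe sets) and 1 lower. Whether the members differ from either group was not tested.

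The route from 35 to 45 DAP differed in the same way, as a description. With signals under 32 raised to 32, the wild-type mean at 40 DAP had covered a median of 98.5% of the log2 decline seen by 45 DAP (quartiles 83.4% and 100%), and the rin mean 37.1% (20.9% and 49.8%). The measure is limited by the floor: 36 members had all 3 wild-type arrays under 32 at 40 DAP and are at 100% or more whatever followed, and no member was in that position in rin. The decline was at or past its midpoint by 40 DAP for 92 members in wild type and for 23 in rin. Replicate 1 of rin alone stood at a median of 100%, and the mean of replicates 2 and 3 at 7.77%. The single wild-type arrays stood at 100%, 99.8% and 100%. The rin mean at 40 DAP thus averages an array at the level of 45 DAP with a pair near the level of 35 DAP.

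**Figure D3:**
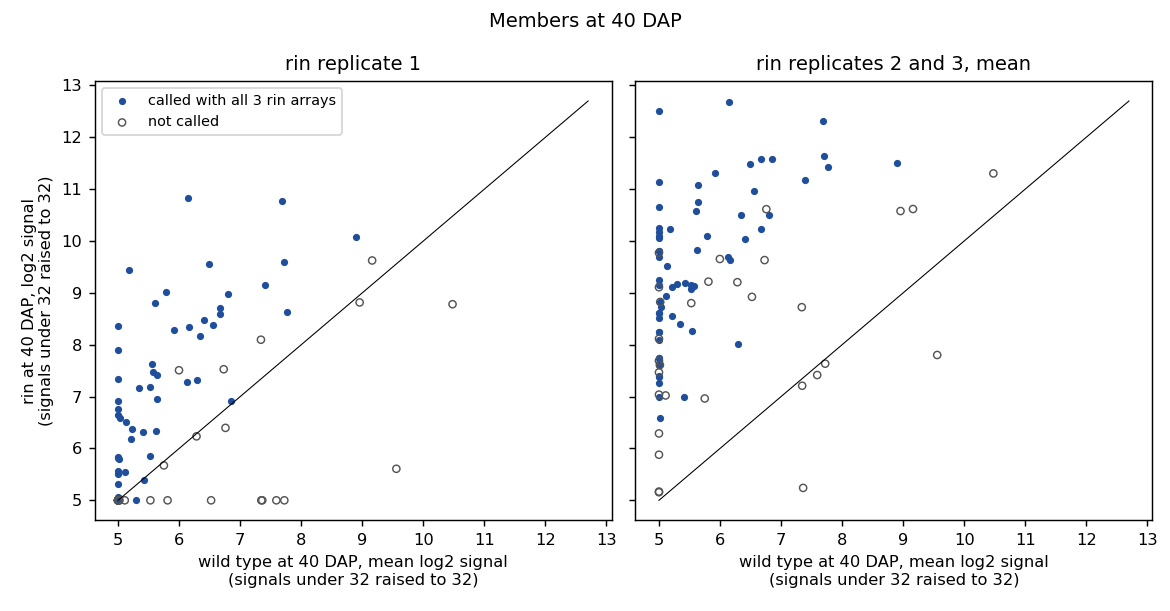
Members at 40 DAP, mean log2 signal of wild type (x axis) against rin replicate 1 (left) and the mean of rin replicates 2 and 3 (right), with signals under 32 raised to 32; filled points were called with all 3 rin arrays, and the line marks equal levels. On the right most points lie far above the line, while on the left 53 of the 95 members lie above it.

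Markers and RNA quality were read beside this result. The summed signal of 8 photosynthesis probe sets was 17299 to 21645 in wild type and 13967 to 14359 in rin at 40 DAP, so the groups did not overlap and rin was the lower, and its part in the result was not tested. None of the 8 was called in limma, with a median log2 difference of -0.48 (1 at an unadjusted p under 0.05). Of the 2 seed genes, AGL11, a MADS-box gene of ovules and seeds, was under 32 on all 6 arrays at 40 DAP, at 6.17 to 13.6, and LEA14, of a family of late embryogenesis proteins, was at 2839 to 3195 in wild type and 2174 to 3343 in rin. The lipid transfer genes, 3 probe sets listed here as markers of the fruit surface without a check of their site, summed to 10982 to 17846 in wild type at 40 DAP. In rin they summed to 10066.5 to 14031 at that age. Most of each sum came from ltpg1, at 8399 to 15214 in wild type and 9450 to 12035 in rin. Over 12 pairs of control probe sets the signal near the RNA's 3′ end exceeded that near the 5′ end by 1.21 to 1.30 (mean log2 ratio) in wild type and by 1.24 to 1.27 in rin at that age, so the groups overlapped. On the arrays that the rule used, the same ratio spread more widely. In rin it was 1.20 to 2.06 at 35 DAP and 0.95 to 1.39 at 45 DAP. In wild type it was 1.32 to 1.44 at 35 DAP and 0.93 to 1.47 at 45 DAP. Its part in the choice of members was not tested. TAGL1, a MADS-box gene of the fleshy fruit wall, was at 1108 to 1449 in wild type and 1002 to 1441 in rin at 40 DAP.

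Signals of single members are given in the order of replicates 1, 2 and 3 and, where no age is named, of 35, 40 and 45 DAP. The named members are taken by role, beginning with enzymes and proteins of the cell wall. PMEU1 is a ubiquitous pectin methylesterase, which removes methyl groups from pectin. The wild-type arrays gave 1772, 2459 and 1296 at 35 DAP, 3.53, 541 and 87.9 at 40 DAP and 3.54, 7.18 and 5.46 at 45 DAP. In rin it was at 1677, 4315 and 3149, then at 120, 2979 and 3170, and at 56.1, 354 and 424. All arrays at 35 DAP were high and all wild-type arrays at 45 DAP near background, while the 40-DAP arrays of the genotypes overlapped through replicate 1 of rin. At 40 DAP it was at least 9.07-fold higher in rin (limma, adjusted p = 0.0461). That call was lost when wild-type replicate 1 or 3 or rin replicate 2 or 3 was left out (adjusted p from 0.0694 to 0.219). It was also lost with signals under 32 raised to 32 (adjusted p = 0.0787), with no filter (0.0646), with only the 6 arrays at 40 DAP (0.204) and with rin replicates 2 and 3 at 45 DAP averaged (0.0546). The bound was 26.7-fold without rin replicate 1 (adjusted p = 0.0086), 4.78 and 19.7 without wild-type replicates 1 and 2, and 5.36 and 5.20 without rin replicates 2 and 3.

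TBG6 belongs to the beta-galactosidases, which trim galactose from wall polymers. Its wild-type signals were 3454, 961 and 2132 at 35 DAP, 62.7, 249 and 81.5 at 40 DAP and 99.1, 78.8 and 159 at 45 DAP. Its rin signals were 2239, 1700 and 2130, then 84.3, 4090 and 600, and 35.2, 355 and 329. The wild-type arrays at 40 and 45 DAP overlapped, and the rin arrays at 40 DAP spread from that level to above that of 35 DAP. The ratio was 5.46 at 40 DAP and not called (adjusted p = 0.116), and it was 14.5 without rin replicate 1 (adjusted p = 0.00972), 2.08 without rin replicate 2 (adjusted p = 0.464) and 8.28 without wild-type replicate 2 (adjusted p = 0.0897).

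CEL8 is an endo-glucanase of the cellulase family. In wild type it was at 657, 489 and 973, then at 9.19, 96.2 and 17.3, and at 41.5, 19.6 and 41.5. The rin arrays gave 798, 281 and 614, then 20.2, 648 and 308, and 7.72, 29.6 and 32.3. At 45 DAP the arrays of the genotypes overlapped. At 40 DAP the bound was 3.44 and CEL8 was not called (adjusted p = 0.0763). It was 9.67 without rin replicate 1 (adjusted p = 0.00282) and 1.71 without rin replicate 2 (adjusted p = 0.284).

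XTH1, XTH16 and XTH7 are xyloglucan endotransglucosylase/hydrolases, which cut and rejoin the xyloglucan that ties cellulose fibrils together. XTH1 was at 361, 652 and 399 in wild type at 35 DAP, at 14.2, 98.6 and 56.1 at 40 DAP and at 8.63, 3.82 and 7.26 at 45 DAP. In rin XTH1 was at 144, 835 and 1208, then at 30.9, 436 and 812, and at 7.26, 89.3 and 77.5. In each rin group replicate 1 was the lowest. XTH16 was at 291, 516 and 317 in wild type, then at 7.11, 33.03 and 18.1, and at 5.77, 6.39 and 10.1. In rin XTH16 was at 67.6, 994 and 764, then at 16.5, 206 and 185, and at 29.2, 25.1 and 29.95. Both genotypes ended under 32. XTH7 was at 532, 63.9 and 97.2 in wild type and 330, 158 and 103 in rin at 35 DAP. It was under 5 on all wild-type arrays at 40 DAP and at 4.66, 20.7 and 39.7 in rin. None of these genes was called at 40 DAP (adjusted p = 0.156 for XTH1, 0.0822 for XTH16 and 0.103 for XTH7). The bound for XTH1 was 3.95, and it was 10.6 without rin replicate 1 (adjusted p = 0.0195) and 2.07 without rin replicate 3 (adjusted p = 0.466). The bound for XTH16 was 2.65, and it was 6.04 without rin replicate 1 (adjusted p = 0.00822) and 1.71 without rin replicate 2 (adjusted p = 0.249). For XTH7 no fold is given, since its rin mean was itself under 32, and with signals under 32 raised to 32 its log2 difference was 0.10 (adjusted p = 0.987).

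AGP-1 is an arabinogalactan protein, a sugar-rich protein of the cell surface, and was the brightest named member. It was at 6841, 4480 and 6997 in wild type at 35 DAP, at 462, 2359 and 2668 at 40 DAP and at 558, 601 and 2912 at 45 DAP. Its rin signals were 4493, 8890 and 8880, then 440, 6362 and 1004, and 720, 1912 and 1408. It stayed well above background throughout, and at 40 DAP the ranges of the genotypes overlapped. The log2 difference was -0.02 (adjusted p = 0.991), and it was also not called without rin replicate 1 (0.82, adjusted p = 0.530). Each genotype had its lowest array near the same level, at 462 and 440.

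The list of cell wall genes held 37 that could be tested at 40 DAP, of which 4 were called higher and 7 lower in rin, with a median log2 difference of 0.00 (signals raised to 32); 15.1% and 10.8% of all probe sets were called, and their median was 0.00. The 4 were EXP5, EXPA3, GP1 and PMEU1, and PMEU1 was the only member among them. The expansin EXP5 and the polygalacturonase beta subunit GP1 had log2 changes from 35 to 45 DAP of -5.82 and -7.66 in wild type but of -0.83 and -0.72 in rin, which kept them outside the rule. The 7 that were lower were TBG4, Man4, EXP1, PG2, XYL1, Cel1 and Cel2, and none is a member.

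Of sugar and starch metabolism, AGAL, an alpha-galactosidase that removes galactose from sugars and wall material, was at 1488, 1501 and 1163 in wild type at 35 DAP. It was at 120, 7.22 and 12.8 at 40 DAP and at 4.40, 5.09 and 4.59 at 45 DAP. In the mutant it was at 1249, 732 and 1576, then at 123, 2157 and 1390, and at 31.997, 360 and 334. Every rin array at 40 DAP lay above every wild-type array, replicate 1 by the least. AGAL was at least 14.4-fold higher in rin at 40 DAP (adjusted p = 0.00441). The bound was 34.8 without rin replicate 1, 8.33 without its replicate 2 and 22.4 without wild-type replicate 1, with a call each time, and with only the 6 arrays of this age adjusted p = 0.0623.

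AgpL1 encodes a large subunit of ADP-glucose pyrophosphorylase, the enzyme that commits glucose to starch. The wild-type arrays gave 1092, 194 and 380, then 9.35, 24.97 and 11.4, and 9.62, 10.9 and 10.5. In rin it was at 1197, 350 and 423, then at 12.1, 550 and 140, and at 12.3, 24.8 and 28.6. It was under 32 on all arrays of both genotypes at 45 DAP. At 40 DAP the bound was 3.05 and AgpL1 was not called (adjusted p = 0.0529). It was 8.66 without rin replicate 1 (adjusted p = 0.000891) and 1.28 without rin replicate 2 (adjusted p = 0.231).

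LOC543961 carries the synonyms SUS1 and sus2, names of sucrose synthase, which splits sucrose for use in growing tissue. In wild type it was at 626, 388 and 411, then at 31.9, 227 and 164, and at 8.68, 4.75 and 31.2. The rin arrays gave 1186, 1895 and 524, then 184, 420 and 1502, and 80.5, 53.9 and 111. At 45 DAP the rin arrays all lay above the wild-type arrays. At 40 DAP the bound was 4.597 and it was not called (adjusted p = 0.0672). The bound was 7.48 without rin replicate 1 (adjusted p = 0.0266), 2.62 without rin replicate 3 (adjusted p = 0.288) and 2.52 without wild-type replicate 1 (adjusted p = 0.284). Among the 13 tested genes of sugar and starch metabolism, with a median log2 difference of 0.37, FRK2 and AGAL were called higher in rin and FRK3 and sus3, another sucrose synthase gene, lower.

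Of nitrogen metabolism, ARG2 is an arginase, which breaks arginine down to ornithine and urea. Its member probe set is of a type that can match more than 1 gene, so related sequences may add to its signal. The wild-type arrays gave 386, 4437 and 515, then 20.0, 18.7 and 19.0, and 18.9, 21.6 and 21.9. Its rin signals were 1240, 543 and 799, then 161, 1384 and 1086, and 164, 152 and 247. Wild type was as low at 40 as at 45 DAP, and rin stayed above it at both later ages. At 40 DAP ARG2 was at least 19.5-fold higher in rin (adjusted p = 0.00049), and at least 38.3-fold without replicate 1. A second ARG2 probe set, LesAffx.1.1.S1_at, had changes of -3.20 in wild type and -1.77 in rin and missed the rule.

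The glutamate decarboxylase yfe37, with the synonym GAD3, makes the amino acid GABA, which accumulates in green fruit. In wild type it was at 801, 3304 and 605, then at 5.65, 12.4 and 16.4, and at 3.34, 4.61 and 3.50. In the mutant it was at 203, 794 and 2466, then at 5.27, 2106 and 145, and at 3.42, 46.3 and 34.0. On replicate 1 of rin at 40 and 45 DAP it was as dim as in wild type. At 40 DAP the bound was 3.66 and yfe37 was not called (adjusted p = 0.122). It was 17.3 without rin replicate 1 (adjusted p = 0.00498), and without rin replicate 2 no fold is left (adjusted p = 0.493). Of 9 tested genes of nitrogen and amino acid metabolism, with a median log2 difference of 0.23, ARG2 was the only one called higher in rin, and hdc and ADC were lower.

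Of growth control, CDKA1 is a cyclin-dependent kinase of the cell cycle. The wild-type arrays gave 565, 400 and 399, then 25.01, 33.7 and 15.9, and 5.96, 6.31 and 10.95. In rin it was at 385, 637 and 473, then at 96.6, 420 and 425, and at 61.2, 92.5 and 90.1. Every rin array was above every wild-type array at 40 and at 45 DAP. CDKA1 was at least 7.93-fold higher in rin at 40 DAP (adjusted p = 0.000179), and at least 13.0-fold without replicate 1. It was the 1 gene called among 8 tested of cell division, whose median log2 difference was 0.38.

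IAA17 encodes an Aux/IAA protein, a repressor of auxin responses. It was at 354, 316 and 171 in wild type and at 211, 180 and 94.1 in rin at 35 DAP. At 40 DAP it was at 8.40, 6.86 and 6.69 in wild type and at 6.64, 40.4 and 12.3 in rin, and at 45 DAP between 5.91 and 9.55 in both. In contrast to most members the rin mean at 40 DAP was already under 32. It was not called there (adjusted p = 0.146), and no fold is given since both means were under 32. With signals under 32 raised to 32 the log2 difference was 0.11 (adjusted p = 0.854). Of 6 tested auxin response genes, with a median log2 difference of 0.51, IAA27 and ARF3 were called higher in rin, and neither is a member.

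TAS14 is a dehydrin, a protein made under drought, salt and abscisic acid. In wild type it was at 298, 1181 and 653, then at 94.0, 20.9 and 7.56, and at 8.58, 7.97 and 7.77. The rin arrays gave 301, 199 and 602, then 57.6, 575 and 561, and 7.50, 19.9 and 26.7. The rin level of 40 DAP was near that of 35 DAP on replicates 2 and 3, and by 45 DAP all arrays of both genotypes were under 32. TAS14 was at least 5.78-fold higher in rin at 40 DAP (adjusted p = 0.0143), and at least 12.4-fold without replicate 1. The call was lost without rin replicate 2 or 3, without wild-type replicate 3 and with only the 6 arrays (adjusted p = 0.0599, 0.0719, 0.0688 and 0.109).

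LOC544081 and LOC778302 have no annotated role in the tables used here. LOC544081 was at 533, 1099 and 820 in wild type, then at 66.6, 229 and 90.8, and at 46.6, 32.4 and 513. In rin LOC544081 was at 796, 1128 and 1799, then at 505, 1568 and 1352, and at 82.6, 432 and 257. Every rin array at 40 DAP was above every wild-type array, with a ratio of 9.18 (adjusted p = 0.0147). Its call was lost without rin replicate 2 or 3 or wild-type replicate 1 (adjusted p = 0.0511, 0.0576 and 0.0585). LOC778302 was at 283, 164 and 295 in wild type and 121, 376 and 141 in rin at 35 DAP, and at 5.48, 20.8 and 24.8 against 4.97, 523 and 33.1 at 40 DAP. It was not called (adjusted p = 0.316), and its rin mean at 40 DAP rested on replicate 2, without which the log2 difference was -0.14 (adjusted p = 0.921). Without rin replicate 1 adjusted p was 0.0240.

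Of the 17 named members, then, 6 were called higher in rin at 40 DAP with all arrays (PMEU1, AGAL, ARG2, TAS14, CDKA1 and LOC544081), against 15.1% of all tested probe sets. The number was 3 without rin replicate 2 (background 12.8%) or without rin replicate 3 (background 9.24%). It was also 3 with only the 6 arrays at 40 DAP (background 7.45%). Without rin replicate 1 it was 16 (background 14.7%), but that array was singled out because the members were low on it. Leaving it out had to raise their rin means, so the 16 supports nothing.

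**Figure D4:**
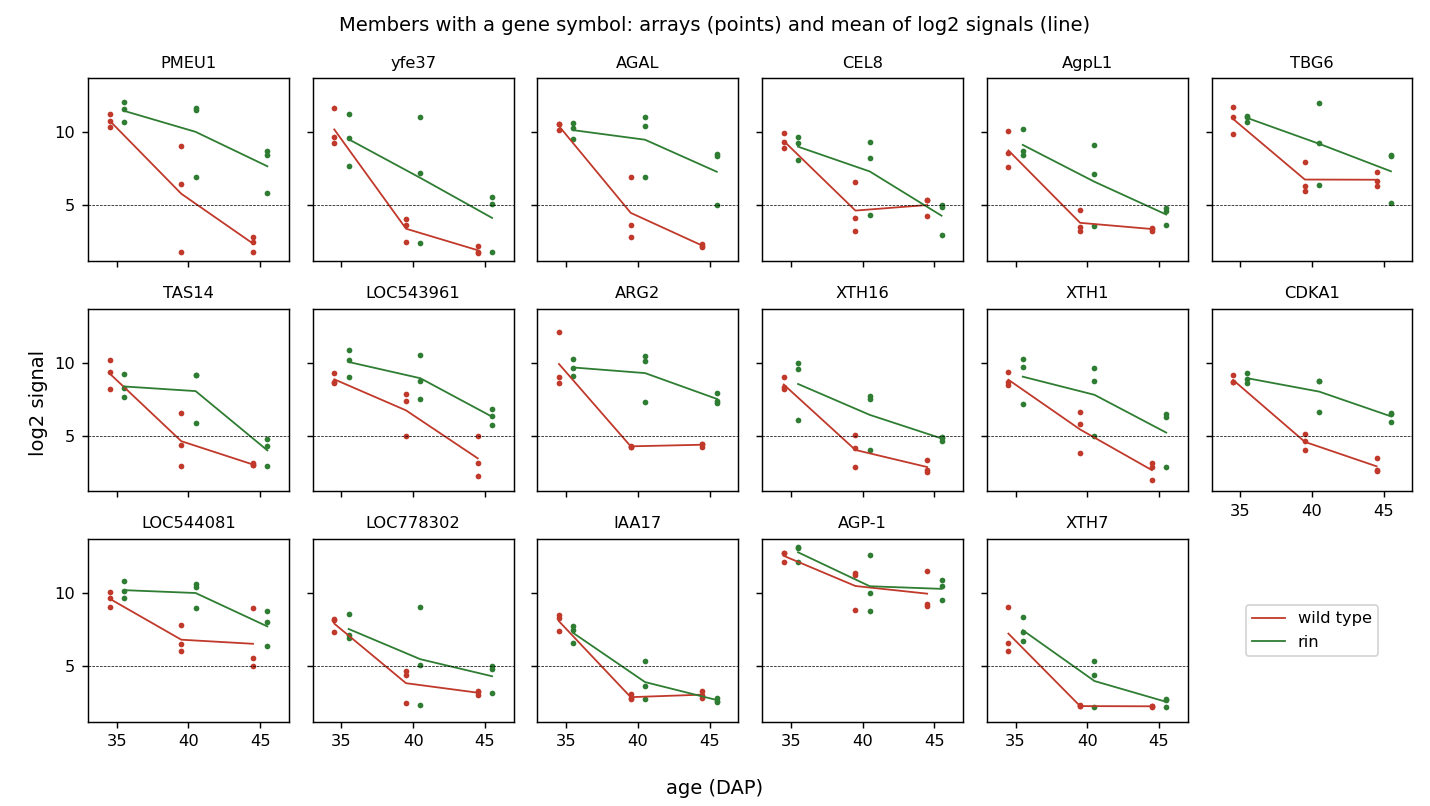
Log2 signal (y axis) against age in DAP (x axis) for the 17 members with a gene symbol, wild type in red and rin in green; points are single arrays, lines join the means of log2 signals, and the dashed line marks a signal of 32. In most panels the larger part of the wild-type decline comes by 40 DAP. In several, such as PMEU1, XTH1 and AGAL, the wild-type line falls further by 45 DAP. In most panels the rin points at 40 DAP spread widely, with replicate 1 lowest.

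Among the unnamed members, LesAffx.46815.2.S1_at had the largest decline averaged over both genotypes. It was at 4412, 2795 and 2923 in wild type at 35 DAP and under 5 on all 6 later wild-type arrays. Its rin signals were 2596, 3967 and 3728, then 121, 5143 and 6509, and 5.05, 424 and 398. Replicates 2 and 3 of rin at 40 DAP were higher than every rin array at 35 DAP, and replicate 1 far lower. It was at least 49.9-fold higher in rin at 40 DAP (adjusted p = 0.000877). The bound was 181 without rin replicate 1, and 27.8 and 24.7 without its replicates 2 and 3. The largest bound of any called member, 60.3, belonged to Les.564.1.S1_at, which is named here after its values were seen, at 19.5, 156 and 71.5 in wild type and 1824, 7568 and 5678 in rin at 40 DAP (adjusted p = 2.36e-05). LesAffx.46815.1.S1_at, a probe set of the same design group as LesAffx.46815.2.S1_at, is a member too.

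Les.2457.1.A1_at was at 2864, 1877 and 1701 in wild type at 35 DAP and between 3.61 and 5.30 at both later ages. In the mutant it was at 2943, 4054 and 3550, then at 239, 2348 and 2181, and at 18.7, 351 and 305. It was at least 33.4-fold higher in rin at 40 DAP (adjusted p = 3.78e-05), and at least 70.7-fold without replicate 1. Les.4777.1.S1_at was at 4082, 2177 and 2429 in wild type, then at 39.4, 62.5 and 50.8, and at 7.26, 10.3 and 41.3. In rin it was at 3004, 2204 and 2837, then at 170, 5412 and 861, and at 115, 159 and 174. It was 18.5-fold higher in rin at 40 DAP (adjusted p = 0.00291), 43.2-fold without rin replicate 1 and 7.66-fold without replicate 2. On each of these 3 probe sets the wild-type arrays were the lowest at 40 DAP, rin replicate 1 came next and rin replicates 2 and 3 were the highest.

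At 40 DAP 6 members had a lower mean in rin (signals under 32 raised to 32), and none was called. They were AGP-1, Les.4335.1.S1_at, Les.5616.1.S1_at and 3 probe sets of 1 design group, Les.4345.1.S1_at, Les.4345.4.A1_at and Les.4345.4.A1_x_at, singled out after their values were seen. Les.4345.1.S1_at was at 2626, 1674 and 4110 in wild type at 35 DAP, at 360, 750 and 1588 at 40 DAP and at 12.02, 6.58 and 6.54 at 45 DAP. The rin arrays gave 1065, 499 and 2961, then 48.8, 584 and 85.4, and 11.1, 712 and 622. Here the wild-type arrays were still at 360 or above at 40 DAP. In rin at 45 DAP only replicate 1 was under 32, and replicates 2 and 3 lay within the range of 35 DAP. Its difference at 40 DAP had adjusted p = 0.170.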

How the data were processed

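The values are the authors' deposited signal intensities, linear and 1 for each probe set on each array. The submitters' processing notes name GCOS without a version. The deposited arrays share a scale, since their trimmed means (2% at each end) differed by a factor of 1.06 at most. The growth notes speak of seedlings, so groups were taken from the sample labels.

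Controls (108 of 10209 probe sets) were dropped. Tests covered the 7720 probe sets above the 30th percentile of an array (11.3 to 15.4) in 3 or more of the 18, and 2381 dim ones were not tested. Using limma 3.58.1 (R 4.3.3), log2 signals of all 18 arrays were fitted with 1 mean per group (6 groups) and trended moderated variances. The contrast was rin minus wild type at 40 DAP, two-sided, with Benjamini-Hochberg adjustment over all 7720 and a threshold of 0.05. The fit was tested on simulated data. Alternatives changed the normalization, the log scale, the filter, the arrays in the fit and the replicates. Other values were computed in Python 3.11.15.

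Symbols came from the platform's annotation of 909 probe sets, of which 885 matched the RefSeq table of assembly SLM_r2.1. The named genes are all 17 members with a symbol, and of unnamed members the 3 with the largest mean decline and the 2 with the largest called log2 difference as fitted (no signals raised) in each direction at 40 DAP, arrays not overlapping. Lists were matched by symbol, trimmed by hand of false matches after the files were seen, and each gene was represented by its brightest tested probe set. The members and lists were chosen with earlier results of these data known. No sequences are shown, since none was in the tables used here.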

Additional observations from a re-analysis of the deposited data

How the results depend on the processing

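The number of members called at 40 DAP stayed between 45 and 83 when 1 array of that age was left out, with 16% to 25.9% of all probe sets called in either direction, and all calls under every alternative run were higher in rin. It was 34 with only the 6 arrays at 40 DAP (13.9% of all), and 59 with signals under 32 raised to 32 before the fit (23.8% of all), a setting chosen after seeing the data. The median log2 difference over the members lay between 2.31 (log2 of the signal plus 32) and 4.20 (without replicate 1 of rin). The rule itself found 177 probe sets at a change of -1.5 or less and 52 at -2.5 or less, 127 with a floor of 16, 64 with a floor of 64, and 70 to 121 when 1 array at 35 or 45 DAP was left out. The log2 difference of AGP-1 ran from -1.10 to 0.82 and that of LOC778302 from -0.14 to 3.22 when 1 array at 40 DAP was left out, so their direction rested on single arrays, and neither was called with all arrays. With the replicate number as a block, the same for both genotypes and all ages, 69 members and 25.5% of all probe sets were called. In wild type 1 title code recurs under a different number at each age, so the block is no test of shared plants. The deviations of same-numbered wild-type and rin samples at 40 DAP correlated at 0.07, -0.13 and -0.07. Whether samples pair across ages within a genotype was not tested. XTH16 was called with the block (adjusted p = 0.0293). Of 255 other values of named members under the alternatives, 219 kept their direction and side of the threshold. Signals under about 32 have no reliable order. This limits the wild-type levels at 45 DAP of the 85 members with at least 1 array under 32 there, and not those of the other 10. In rin at 45 DAP 53 members had such an array. At 40 DAP 72 members had one in wild type and 35 in rin.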

Other observations

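The design groups of the members hold 23 further probe sets that are not members. For IAA17 and ARG2 another probe set stayed dim on all 18 arrays, at no more than 4.22 for Les.3702.1.S1_at and 12.3 for Les.3299.1.S1_at. The other 2 probe sets of XTH16 had log2 changes from 35 to 45 DAP of -1.07 and -0.97 in wild type and -1.12 and -0.91 in rin, with signals under 32 raised to 32. Les.5682.2.A1_at shares a design group with a member and had changes of -0.09 in wild type and -0.16 in rin, at signals of 6990 to 11719.

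Replicate 3 of wild type at 45 DAP was the highest of its group for 62 of the 95 members, replicate 2 for 23 and replicate 1 for 10. LOC544081 was at 513 on that array against 46.6 and 32.4, and AGP-1 at 2912 against 558 and 601.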
